A study of Mus musculus with 8 samples.

Results

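This comparison set CD11b+Gr-1+ myeloid cells from colon tumors of mice labelled as lacking Hdc against the same class of cells from the bone marrow of mice lacking Hdc. It asked which genes differ between tumor and marrow cells when the histamine-making enzyme is missing from both. Its members were the 4 arrays, of 8 in the study, whose titles name the Hdc-null genotype, with 2 from tumor and 2 from marrow. Of 18194 genes with a probe set of their own, the 8049 that reached log2 5 on at least 2 of these 4 arrays were tested. Values are log2 expression values from Affymetrix arrays, on which 1 unit is a 2-fold difference, and values under log2 5 were treated as background. Just inside that limit stood Spsb2, whose second-highest value was 5.001, and just outside it Foxa1 at 4.999.

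Both groups carry the genotype label HDC-EGFP/HDC-KO and the strain label C57BL/6J. HDC-KO is the deletion of Hdc, and HDC-EGFP is a transgene in which the green protein reports the activity of the Hdc promoter. The marrow cells came from femur and tibia of 3 mice aged 3 to 4 months, with no treatment named, and were sorted as CD11b+Gr-1+ and HDC-expressing. The tumor cells came from 5 mice aged 7 months that had received 1 dose of azoxymethane, a colon carcinogen, and then 10 days of dextran sodium sulfate, an agent that injures the lining of the colon. Tumors were taken 22 to 24 weeks later, cells of 10 to 12 tumors were combined, and no gate on EGFP is named for them. The labels disagree on the tumor donors, since the protocol and design texts call them HDC-KO without the transgene. Each group was 1 pool on 2 technical arrays, so a p-value here measures only the spread between arrays of 1 pool and not that between mice. The study's other 2 pools came from HDC-EGFP mice with intact Hdc and the same strain label, as marrow cells at 3 to 4 months and as colon tumor cells at 7 months after the same azoxymethane and dextran sodium sulfate. They carry the transgene too, served for comparison and are called the wild-type pools, as their titles do.

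CD11b and Gr-1 are surface proteins of granulocytes and monocytes, and cells carrying both are called immature myeloid cells in marrow and myeloid-derived suppressor cells in tumors. In marrow, granulocyte precursors divide while they fill primary granules, then secondary granules, and stop dividing before they leave as neutrophils. Monocytes leave the marrow and become macrophages or antigen-presenting cells in tissue. Hdc encodes histidine decarboxylase, which converts histidine to histamine.

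Hdc itself went against the label of the tumor pool. It measured 9.79 and 9.87 on the marrow arrays and 13.03 and 13.03 on the tumor arrays, a log2 difference of 3.20 ± 0.054 (SE), or 9.19-fold higher in tumor (limma, adjusted p = 7.73e-08). The wild-type means were 13.18 in marrow and 13.24 in tumor, so the tumor arrays stood at the wild-type level and the marrow arrays well under it. The second Hdc probe set gave 7.20 and 7.73 in marrow against 11.96 and 12.01 in tumor. The tumor pool is therefore named below by its label only, as the labelled tumor pool, and each direction drawn from it rests on that label. The name HDC-KO pair likewise follows the labels of these pools and does not mean that both lacked Hdc. Hnmt, which inactivates histamine by methylation, fell 2.84-fold, from 10.54 and 10.56 in marrow to 9.02 and 9.06 in tumor. Of 10 genes that make, carry, break down or sense histamine, 9 were on the array and these 2 passed the level filter.

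Sex also separated the pools. Xist, the RNA that silences an X chromosome in female cells, measured 12.48 and 12.44 on the marrow arrays and 2.86 and 2.90 on the tumor arrays, so it was at least 176-fold lower in tumor. Eif2s3y, a Y chromosome gene, measured 2.33 and 2.40 on the marrow arrays and 11.17 and 10.89 on the tumor arrays, and Kdm5d, another, was at least 8.19-fold higher in tumor. The marrow pool thus carried the female pattern and the labelled tumor pool the male one, and the wild-type pools were divided in the same way, with Xist at 12.39 in marrow and 3.26 in tumor. H2-Ea, an MHC class II alpha chain, measured 3.93 and 3.83 on the marrow arrays and 13.24 and 13.15 on the tumor arrays and was at least 293-fold higher in tumor. Mice of the C57BL/6 background carry a deletion at the start of H2-Ea and do not make its protein, so its level was at odds with the strain label in both tumor pools, since the wild-type means were 2.02 in marrow and 11.52 in tumor. Other class II genes were low in marrow too, so the marrow values bear on no strain. Tissue, sex, age, treatment, EGFP gate and any difference in strain background cannot be told apart in this comparison.

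Of the 8049 genes tested, 2949 (36.6%) differed at least 2-fold between the pools with an adjusted p (limma, Benjamini-Hochberg) below 0.05. The labelled tumor pool was higher for 1713 of them (21.3%) and lower for 1236 (15.4%). Every gene with a mean difference of at least 2-fold passed, and the arrays of the pools did not overlap for 7326 genes (91%), so neither fact sets a gene apart. Among the 6630 genes with both pools at or above log2 5, 1717 (25.9%) were called, 787 higher (11.9%) and 930 lower (14%), and the median log2 difference was -0.106. Another 926 were higher with marrow under log2 5 and 306 lower with tumor under it, and for those a fold is given as a lower bound, with the low mean raised to log2 5. A gene that entered the test only through its high pool had to differ, so such genes are counted apart. Counts within a gene list are to be read beside these shares, 11.9% higher and 14% lower where both pools were measured. At least 10-fold differences with both pools measured numbered 101 higher and 76 lower. Every gene written as risen or fallen had a limma adjusted p of at most 0.000195, except Nkg7 at 0.000512. Throughout, n is 2 technical arrays per pool. Folds are those of a gene's brightest probe set. Of the 50 called genes named here with another detected probe set, each other set also differed at least 2-fold the same way. The size was smaller by over 2 log2 units on another set for 11, with differences of 1.90 for Epcam, 1.60 for Cxcl1, 2.47 for Tgm2, -1.43 for Runx1, -6.25 for Xist, 4.09 for Jun, -1.12 for Lbp, -2.70 for Ncam1, 3.94 for Msr1, 4.26 for H2-Aa and -2.24 for Uhrf1.

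Genes of primary granules, which promyelocytes fill first, fell in part. Mpo, the myeloperoxidase of these granules and the largest fall among genes measured in both pools, measured 13.15 and 13.09 on the marrow arrays and 5.51 and 5.36 on the tumor arrays, a difference of -7.69 ± 0.065 (SE) or 206-fold lower. Ctsg, the protease cathepsin G, went from 11.53 and 11.60 in marrow to 4.42 and 3.98 in tumor and was at least 94.6-fold lower. Elane, neutrophil elastase, went from 9.68 and 9.72 in marrow to 4.08 and 3.66 in tumor and was at least 26-fold lower. Prtn3, proteinase 3, fell 12.2-fold, and Ms4a3, a membrane protein of granulocyte and monocyte precursors, fell 25.8-fold. Of 12 primary granule genes tested, 9 had both pools measured and 5 of those fell, while 3 more fell with tumor under log2 5. Srgn, the proteoglycan that packs granule contents, was the highest of the list and did not pass, at 13.81 and 13.77 on the marrow arrays and 14.39 and 14.43 on the tumor arrays. In the wild-type pools Mpo also fell, from a mean of 13.39 to 10.51, and the difference between the pairs was -4.80 on the log2 scale (limma interaction contrast, adjusted p = 2.33e-06).

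Secondary and tertiary granule genes, which myelocytes and later stages make, were divided. Of 19 tested, all with both pools measured, 8 fell, none rose and 11 did not pass, with a median log2 difference of -0.819. Itgb2l, an integrin beta chain of granulocytes, measured 13.22 and 13.18 on the marrow arrays and 7.64 and 7.66 on the tumor arrays and fell 46.8-fold. Fcnb, the granule lectin ficolin B, went from 11.54 and 11.54 in marrow to 7.40 and 6.94 in tumor and fell 20.7-fold. Padi4, which converts histone arginines during the release of chromatin traps, fell 4.7-fold, and Pglyrp1, a peptidoglycan-binding protein, fell 3.47-fold. The most abundant members stayed within 2-fold. They lay near the top of the scale, where the brightest probe sets stood at 15.13 to 15.34, so small differences there say little of RNA amounts. Lyz2, the myeloid lysozyme, measured 14.81 and 14.81 on the marrow arrays and 14.82 and 14.87 on the tumor arrays. Lcn2, which binds bacterial iron carriers, measured 14.68 and 14.62 on the marrow arrays and 14.17 and 14.14 on the tumor arrays, and Cybb, the catalytic subunit of the phagocyte oxidase, measured 14.11 and 14.09 on the marrow arrays and 13.60 and 13.65 on the tumor arrays. In the wild-type pair 1 of these 19 genes fell, against 4.37% of all genes tested. The difference between the pairs was called for 6, each lower in the pair labelled HDC-KO, against 11.6%.

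Genes of mature neutrophils stayed within 2-fold or rose in the labelled tumor pool, with 1 exception. Of 20 mature neutrophil genes tested, 18 had both pools measured, 5 of these rose and 1 fell, and 2 more rose from under log2 5. S100a9, the calcium-binding alarmin that is among the most abundant neutrophil products, measured 15.17 and 15.14 on the marrow arrays and 15.15 and 15.15 on the tumor arrays. It lay at the top of the scale on all 8 arrays, whose brightest probe sets stood at 15.13 to 15.34, so near-equal values there say little of RNA amounts. G0s2, an inhibitor of triglyceride breakdown, rose 5.71-fold, from 10.90 and 10.96 in marrow to 13.40 and 13.49 in tumor. Il1r2, the decoy receptor of interleukin 1, rose 2.44-fold. Dusp2, a phosphatase of MAP kinases, was at least 19-fold higher. Ptprc, which encodes the general leukocyte protein CD45, measured 13.69 and 13.73 on the marrow arrays and 13.87 and 13.80 on the tumor arrays. Of the sort markers, the Ly6 genes behind Gr-1 had no probe set of their own here, and Itgam, which encodes CD11b, fell 2.18-fold, from 12.39 and 12.36 in marrow to 11.21 and 11.30 in tumor.

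Transcription factors of myeloid cells were divided. Gfi1, a repressor that granulocyte precursors need, measured 10.70 and 10.72 on the marrow arrays and 6.23 and 6.10 on the tumor arrays and fell 23.3-fold. Myb, a regulator of dividing progenitors, went from 11.58 and 11.69 in marrow to 7.22 and 7.62 in tumor and fell 18.6-fold. Runx1, a factor of blood stem cells and early myeloid cells, was at least 17.5-fold lower, with its tumor arrays at 4.04 and 4.05, while its 2 other detected probe sets gave log2 differences of -1.48 and -1.43. Irf5, a factor of inflammatory macrophages, rose 12.9-fold, and Irf8, which directs monocyte and dendritic cell fate, rose 7.18-fold. Cebpb, which drives granulocyte production in emergencies, was the highest of the list and rose 2.99-fold. Of 22 factors tested, 20 had both pools measured, with 6 higher and 5 lower. Of the progenitor genes, Erg, a factor of blood stem cells, fell 12.5-fold and Cdk6, a kinase of cell cycle entry, fell 3.33-fold, while Npm1, a nucleolar chaperone, measured 11.49 and 11.44 on the marrow arrays and 12.12 and 12.15 on the tumor arrays and did not pass.

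Cell cycle genes fell together. Of 28 listed, 27 were on the array and 26 were tested. All 16 with both pools measured fell, against 14% of all such genes, with a median log2 difference of -3.658, and 10 more were lower with tumor under log2 5. Nuf2, a kinetochore protein, measured 10.74 and 10.63 on the marrow arrays and 5.96 and 6.10 on the tumor arrays and fell 25.1-fold. Kif11, the motor that separates spindle poles, measured 10.26 and 10.26 on the marrow arrays and 5.86 and 5.66 on the tumor arrays and fell 22.6-fold. Bub1, a checkpoint kinase, fell 22-fold, Aurkb, a kinase of chromosome segregation, fell 21.1-fold, and Spc25, a partner of Nuf2, fell 25.5-fold. Cenpf, another kinetochore protein, fell 23.6-fold and had its tumor arrays furthest apart, at 4.86 and 5.72. Mki67, the proliferation marker Ki-67, fell 5.68-fold but remained well above background, at 12.59 and 12.63 on the marrow arrays and 10.01 and 10.19 on the tumor arrays. Of 25 genes of DNA replication and nucleotide synthesis tested, 17 had both pools measured and 15 of those fell, while 8 more were lower from under log2 5. Uhrf1, which guides methylation of new DNA strands, fell 21.2-fold, Mcm3, a helicase subunit, 10.4-fold, Cdc6, which loads the helicase, 11.1-fold, and Prim1, the primase, 10.8-fold. Pcna, the polymerase clamp, measured 12.71 and 12.65 on the marrow arrays and 11.66 and 11.79 on the tumor arrays, just under a 2-fold difference. It passed the threshold after median centring and without the second tumor array, as given in the closing section.

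The fall was then tested against the wild-type pair. There limma called none of the 26 cell cycle genes, 18 had an unadjusted p under 0.05 and the median was -0.339. The averages of the arrays without a test gave 0 of them a 2-fold difference. The difference between the pairs was called lower for 26 of 26, against 11.6% of all genes tested. Genes with the labelled tumor mean at background were kept for their high marrow level, so they add no support to this count. As all 26 were called, every cell cycle gene with both pools measured was among them. Over the 27 genes on the array, the mean level was 9.58 and 9.59 on the HDC-KO marrow arrays, 9.76 on each wild-type marrow array, and 9.37 and 9.39 on the wild-type tumor arrays. It was 5.86 and 5.93 on the labelled HDC-KO tumor arrays, which stood apart from the other 6. In sorted pools, fewer dividing cells and less of these RNAs per cell cannot be told apart.

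Many promoters of cell cycle genes hold the letters TTTGAA, the cell cycle genes homology region, through which these genes are held down in resting cells. The windows from RefSeq (GRCm38.p6) run from 250 bases before to 50 after a gene's start, and both strands were searched. TTTGAA stood in 16 of 21 cell cycle genes with a window (76.2%), in 2 of 21 replication genes, and in 20.2% of 27025 genes with a window. The 150 bases before the start of Kif11 (chr19:37376232-37376381, plus strand) and of Mki67 (chr7:135716380-135716529, minus strand) are shown because both fell and hold this motif close to the start, in capitals on either strand.
Kif11: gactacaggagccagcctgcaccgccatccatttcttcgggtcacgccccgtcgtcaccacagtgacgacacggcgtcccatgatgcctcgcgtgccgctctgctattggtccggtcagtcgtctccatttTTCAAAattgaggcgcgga
Mki67: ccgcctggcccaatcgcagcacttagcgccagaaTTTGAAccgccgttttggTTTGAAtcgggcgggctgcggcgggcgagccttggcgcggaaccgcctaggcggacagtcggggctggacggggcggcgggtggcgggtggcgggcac
A match describes these letters only and shows no binding.

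**Figure D1:**
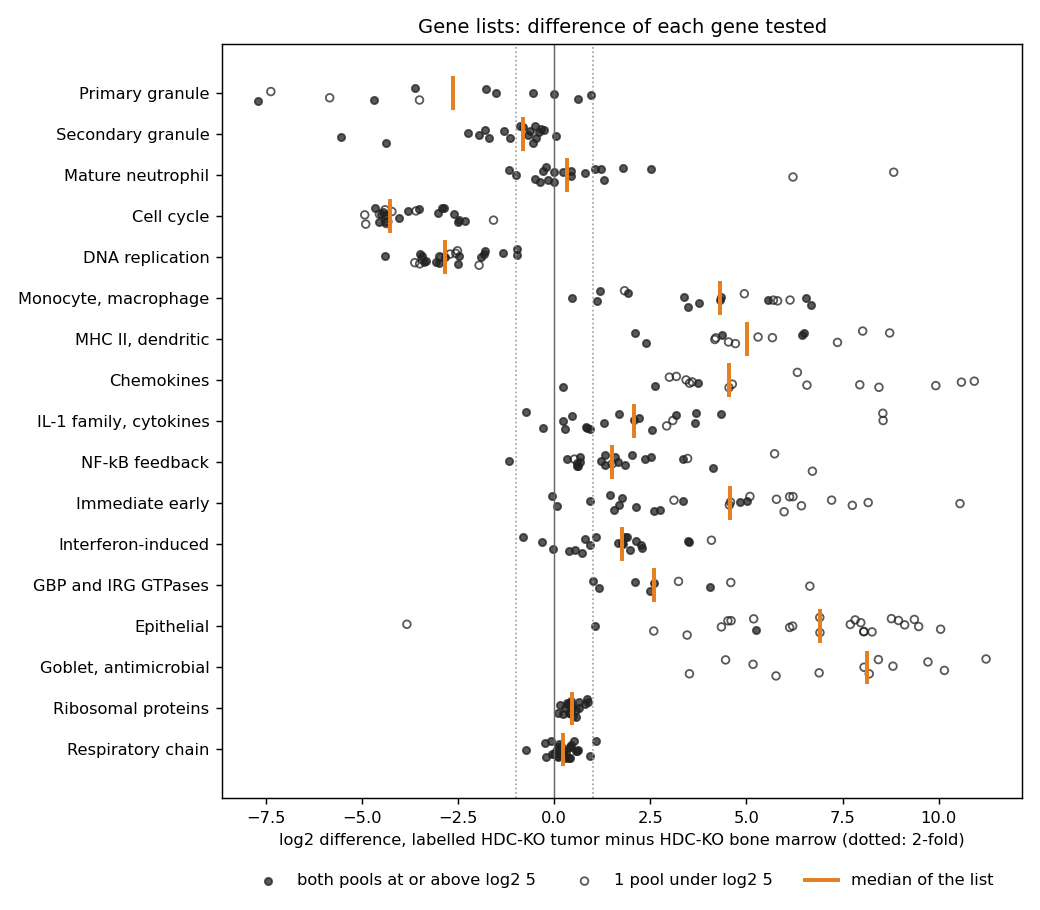
Log2 difference of each tested gene in 17 gene lists, labelled HDC-KO tumor minus HDC-KO marrow. Filled points have both pools at or above log2 5, open points have 1 pool under it, orange bars are list medians and dotted lines mark a 2-fold difference. The 26 cell cycle genes lie between -4.92 and -1.57, ribosomal protein genes lie within 2-fold, and most epithelial, goblet and chemokine points are open.

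Monocyte and macrophage genes rose. Cd14, the co-receptor for lipopolysaccharide, measured 7.48 and 6.98 on the marrow arrays and 13.77 and 13.80 on the tumor arrays and rose 94.2-fold. Apoe, the lipid carrier of macrophages, measured 6.20 and 6.43 on the marrow arrays and 12.99 and 13.02 on the tumor arrays, a difference of 6.69 ± 0.240 (SE) or 103-fold. Adgre4, an adhesion receptor of macrophages, rose 95.2-fold, and Aif1, an actin-bundling protein of macrophages, rose 81-fold. Mrc1, the mannose receptor, went from 6.02 and 5.09 in marrow to 11.03 and 11.18 in tumor and rose 47-fold. Csf1r, the receptor for macrophage colony-stimulating factor, was already at 11.22 and 11.24 in marrow and rose 3.8-fold. Ccr2, the chemokine receptor that brings monocytes out of marrow, rose 13.5-fold. Of 17 listed genes tested, 12 had both pools measured and 11 of those rose, against 11.9% of all such genes, with a median of 3.621. In the wild-type pair 16 of the 17 rose, against 11.5% of all genes tested. The difference between the pairs passed for 7 higher and 1 lower, against 16.7% and 11.6%. Apoe stood at 5.42 in wild-type marrow and 12.15 in wild-type tumor, and the difference between the pairs, -0.04 (SE 0.340), did not pass.

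Many scavenger and lysosomal genes of macrophages rose with them, and complement genes were divided. C1qa and C1qb encode chains of the first complement component. C1qa measured 4.46 and 4.77 on the marrow arrays and 11.74 and 11.79 on the tumor arrays and was at least 109-fold higher, and C1qb rose 34.4-fold. C5ar1, the receptor for the complement fragment C5a, did not pass, at 11.29 and 11.38 on the marrow arrays and 10.94 and 11.01 on the tumor arrays. Of 9 complement genes tested, 5 had both pools measured, and of these C1qb rose, Cd55, which shields cells from complement, fell 2.46-fold and 3 did not pass, while 4 more were higher from under log2 5. Cd55 was named after its value was seen. Msr1, the scavenger receptor A, was at least 42.4-fold higher, and Abca1, which exports cholesterol, at least 71.5-fold. Of 20 scavenger and lipid genes tested, 13 had both pools measured, with 7 higher and 2 lower, and 7 more were higher from under log2 5. Lgmn, the lysosomal protease legumain, was at least 62-fold higher, and Ctsl, cathepsin L, rose 24.7-fold. Ctss, which cuts the invariant chain for antigen presentation, measured 11.16 and 10.93 on the marrow arrays and 14.21 and 14.26 on the tumor arrays and rose 9.15-fold. Of 19 lysosomal genes tested, 18 had both pools measured and 10 of those rose, none fell.

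Genes of MHC class II presentation rose. Cd74, the invariant chain, measured 5.99 and 5.90 on the marrow arrays and 12.46 and 12.40 on the tumor arrays and rose 89.6-fold. H2-Aa, an alpha chain, measured 5.89 and 5.79 on the marrow arrays and 12.29 and 12.27 on the tumor arrays and rose 87-fold. H2-Ab1, its beta partner, went from 4.57 and 4.42 in marrow to 12.56 and 12.47 in tumor and was at least 183-fold higher, and H2-Eb1 was at least 181-fold higher. Itgax, which encodes CD11c of dendritic cells, was at least 7.85-fold higher. Of 21 genes of this list on the array 14 were tested. The 5 with both pools measured rose, as did the 9 that entered through the tumor arrays. The rise was larger than in the wild-type pair for 12 of 14, where 16.7% of all genes tested had such a difference. The 9 that entered through the tumor arrays were kept for their high level there. This count is therefore no support for a larger rise. Cd74 exceeded the wild-type difference by 1.86 and H2-Aa by 2.36 on the log2 scale.

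MHC class I genes moved less by their brightest probe sets. Of 12 tested, 11 had both pools measured, 4 rose and none fell. For 2 heavy chain genes, named after their values were seen, this depended on the probe set. H2-K1 did not pass at a log2 difference of 0.250, while its 3 other detected probe sets were higher by 1.31 to 1.66. H2-D1 did not pass at 0.168, while 3 of its 7 others were at least 2-fold higher. Nlrc5, the activator of class I genes, measured 5.65 and 5.41 on the marrow arrays and 8.37 and 8.46 on the tumor arrays and rose 7.38-fold, while in the wild-type pair it went from 7.27 to 6.12. Psmb10, an immunoproteasome subunit, rose 5.5-fold, and Tap1, which carries peptides into the endoplasmic reticulum, rose 3.36-fold. B2m, the light chain of class I molecules, measured 13.73 and 13.76 on the marrow arrays and 14.12 and 13.95 on the tumor arrays. Of the 12, 7 had a difference between the pairs called higher and none lower, against 16.7% and 11.6% of all genes tested. In the wild-type pair 2 fell, against 4.37%.

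Chemokines were mostly silent in marrow and abundant in tumor. Cxcl2, which draws neutrophils through Cxcr2, measured 2.86 and 2.92 on the marrow arrays and 13.85 and 13.78 on the tumor arrays and was at least 450-fold higher, the largest bound in the comparison. Cxcl3, a close relative, measured 2.67 and 2.45 on the marrow arrays and 13.19 and 13.11 on the tumor arrays and was at least 284-fold higher. Cxcl1 went from 2.91 and 2.66 in marrow to 11.31 and 11.14 in tumor and was at least 74.7-fold higher, and Ccl3, a macrophage chemokine, was at least 138-fold higher. Ccl6, a chemokine that myeloid cells make at rest, measured 13.59 and 13.62 on the marrow arrays and 13.87 and 13.82 on the tumor arrays and did not pass. Of 25 chemokines on the array 17 were tested, and 14 of these entered through the tumor arrays alone. Of the 3 with both pools measured, 2 rose.

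The NF-kappa-B motif, through which inflammatory signals reach these genes, was found in 5 of 12 chemokine windows (41.7%), in 10 of 21 windows of NF-kappa-B feedback genes (47.6%), and in 5.14% of 27025 genes. The 150 bases before the start of Cxcl1 (chr5:90891095-90891244), Cxcl2 (chr5:90903749-90903898) and Cxcl3 (chr5:90785951-90786100), all on the plus strand of GRCm38.p6, are shown because the 3 neighbours rose together and share the capital letters.
Cxcl1: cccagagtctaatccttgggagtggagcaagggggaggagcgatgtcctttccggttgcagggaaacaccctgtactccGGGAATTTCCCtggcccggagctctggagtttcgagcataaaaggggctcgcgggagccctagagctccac
Cxcl2: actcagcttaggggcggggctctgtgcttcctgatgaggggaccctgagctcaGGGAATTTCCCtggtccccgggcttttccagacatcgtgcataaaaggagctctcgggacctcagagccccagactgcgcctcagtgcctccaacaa
Cxcl3: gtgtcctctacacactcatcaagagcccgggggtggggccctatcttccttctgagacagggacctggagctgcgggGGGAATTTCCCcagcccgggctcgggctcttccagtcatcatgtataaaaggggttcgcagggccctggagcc
The capitals mark 2 overlapping matches on opposite strands, the second beginning 1 base after the first. They begin 71 bases before the start in Cxcl1, 97 in Cxcl2 and 73 in Cxcl3.

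Many cytokine genes and genes that restrain NF-kappa-B rose too. Il1b, interleukin 1 beta, was already high in marrow, measured 10.69 and 10.88 on the marrow arrays and 14.46 and 14.51 on the tumor arrays and rose 13-fold. Il1a, its relative, was at least 51.8-fold higher and Il6, an acute phase cytokine, at least 52.8-fold, both from under log2 5. Osm, oncostatin M, rose 12.7-fold, and Il18, which macrophages and epithelium make, rose 20.2-fold. Of 21 genes of this list tested, 17 had both pools measured and 9 of those rose, none fell. Tnfaip3, the ubiquitin-editing inhibitor A20, measured 8.09 and 8.12 on the marrow arrays and 12.28 and 12.21 on the tumor arrays and rose 17.6-fold. Nfkbiz, an inducible nuclear partner of NF-kappa-B, rose 5.75-fold, and Icam1, the adhesion ligand, was at least 47.3-fold higher. Nfkbia, the inhibitor itself, measured 13.73 and 13.70 on the marrow arrays and 14.35 and 14.25 on the tumor arrays and did not pass, while the mean of its probe sets did, at a log2 difference of 1.26. Of 23 feedback genes tested, 18 had both pools measured, with 11 higher and 1 lower. The wild-type pair showed 12 of 21 cytokines and 12 of 23 feedback genes higher, against 11.5% of all genes tested. Tnfaip3 differed between the pairs by -0.60.

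Immediate early genes, which cells switch on within minutes of a stimulus and also during tissue dissociation, were higher in 23 of 26 tested, 13 of them from under log2 5. Egr1, a zinc finger factor, measured 2.34 and 2.76 on the marrow arrays and 13.09 and 13.11 on the tumor arrays and was at least 274-fold higher. Jun, of the AP-1 complex, was at least 65.3-fold higher, and Egr3 at least 48.7-fold. Nr4a1, an orphan nuclear receptor, had its marrow arrays apart, at 4.20 and 5.62, and was at least 80.9-fold higher. Dusp1, a MAP kinase phosphatase, measured 11.57 and 11.50 on the marrow arrays and 14.17 and 14.08 on the tumor arrays and rose 6.04-fold. Of the 13 with both pools measured 10 rose, against 11.9% of all such genes. In the wild-type pair 21 of 26 were higher, against 11.5% of all genes tested. A difference between the pairs was called for 4 of the 26, against 28.4% of all genes tested. Among 16 heat shock genes and chaperones tested 6 were higher, and 2 of 12 with both pools measured, a share near the 11.9% of all such genes. Hspa1b, an inducible Hsp70, was at least 36-fold higher and Hspe1, a mitochondrial chaperonin, rose 2.44-fold. Hspa8, the constant form of Hsp70, measured 13.05 and 13.14 on the marrow arrays and 13.18 and 13.10 on the tumor arrays. That is its brightest probe set, and 1 of its 3 other detected sets was higher by a log2 of 2.62. The part of cell preparation in these values was not tested.

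Genes linked to the suppressive function of myeloid cells rose in part. Arg1, the arginase that depletes arginine, measured 1.92 and 2.14 on the marrow arrays and 10.08 and 10.25 on the tumor arrays and was at least 35.8-fold higher. Arg2, the mitochondrial arginase, was high in both pools and did not pass, at 12.31 and 12.32 on the marrow arrays and 12.87 and 12.89 on the tumor arrays. Acod1, which makes itaconate, measured 6.90 and 6.97 on the marrow arrays and 13.41 and 13.51 on the tumor arrays and rose 92-fold. Cd274, the checkpoint ligand PD-L1, was at least 30.1-fold higher. Nt5e, which makes adenosine, fell 9.38-fold, from 10.89 and 10.84 in marrow to 7.52 and 7.75 in tumor. Of 15 tested, 11 had both pools measured, with 5 higher and 1 lower. The rise of Acod1 exceeded that in the wild-type pair by 3.00, with wild-type marrow at 10.10 and wild-type tumor at 13.62, so the pairs stood further apart in marrow than in tumor. Arg1 differed between the pairs by -0.42, which did not pass.

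Prostaglandin and leukotriene genes moved both ways. Ptgs2, the inducible cyclooxygenase, measured 3.45 and 3.38 on the marrow arrays and 13.02 and 13.06 on the tumor arrays and was at least 263-fold higher. Hpgd, which degrades prostaglandins, was at least 49.6-fold higher. Lta4h, which makes leukotriene B4, fell 4.45-fold, from 12.98 and 12.97 in marrow to 10.79 and 10.86 in tumor, and Ltb4r1, the receptor of that lipid, fell 3.85-fold. Alox5ap, the partner of 5-lipoxygenase, measured 13.98 and 14.02 on the marrow arrays and 13.85 and 13.85 on the tumor arrays. Of 14 tested, 11 had both pools measured, with 2 higher and 5 lower. In the wild-type pair 4 of the 14 were higher and none lower, against 11.5% and 4.37% of all genes tested.

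Among growth factors and matrix genes, Tgm2, a transglutaminase that crosslinks matrix proteins, measured 6.49 and 6.38 on the marrow arrays and 12.95 and 12.90 on the tumor arrays and rose 89.6-fold. Its difference exceeded the wild-type one by 3.69, with wild-type marrow at 10.13. Igf1, an insulin-like growth factor of macrophages, was at least 9.33-fold higher, while Inhba, an activin subunit, fell 5.48-fold. Mmp13, a collagenase, was at least 13.2-fold higher and Mmp12, the macrophage elastase, at least 9.12-fold, whereas Mmp8, the neutrophil collagenase, fell 2.46-fold. Of 18 matrix genes tested, 13 had both pools measured, with 4 higher and 4 lower, against 11.9% and 14% of all such genes. Thbs1, thrombospondin 1, measured 10.16 and 10.03 on the marrow arrays and 10.68 and 10.67 on the tumor arrays and did not pass.

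Many interferon-induced genes rose in this pair, and many by more than in the wild-type one. Ifit1, which binds foreign RNA caps, measured 5.86 and 5.81 on the marrow arrays and 9.38 and 9.25 on the tumor arrays and rose 11.2-fold. Ifit3, its partner, measured 7.25 and 7.76 on the marrow arrays and 9.24 and 9.34 on the tumor arrays and rose 3.44-fold. Zbp1, a sensor of Z-form nucleic acid, rose 11.4-fold, and Irf7, which amplifies interferon production, rose 4.88-fold. Of 21 tested, 20 had both pools measured and 12 of those rose, none fell, with a median of 1.711. In the wild-type pair 2 rose and 4 fell, with a median of -0.148, against 11.5% and 4.37% of all genes tested. The difference between the pairs was called higher for 12 and lower for none, against 16.7% and 11.6%. Wild-type marrow was the high pool for several of them. Ifit1 stood at 8.31 there and 7.25 in wild-type tumor, and Ifit3 at 9.46 and 6.35. Oasl2, of the oligoadenylate synthetase family, went from 9.74 to 5.67 in the wild-type pair. It measured 7.43 and 7.45 on the marrow arrays and 8.50 and 8.25 on the tumor arrays here, which missed the 2-fold threshold and passed it at 1.06 without the second tumor array.

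Guanylate-binding proteins and immunity-related GTPases, which attack the vacuoles of intracellular microbes and are strongly induced by interferon gamma, were higher for 9 of 9 tested. Of the 6 with both pools measured, Gbp3 measured 5.59 and 5.58 on the marrow arrays and 9.67 and 9.61 on the tumor arrays and rose 16.6-fold, Igtp rose 6.05-fold and Gbp2 rose 5.67-fold. Gbp7, the highest, rose 2.03-fold and fell short of 2-fold without the first tumor array, at a log2 difference of 0.991. The difference from the wild-type pair was called higher for 9 of 9, while 2 of 9 rose there.

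The letters GAAA, any 2 bases and GAAA again, the core of the interferon-stimulated response element, stood in 7 of 17 windows of interferon-induced genes (41.2%), in 6 of 6 of the GTPases, and in 3.99% of 27025 genes. The 150 bases before the start of Ifit1 (chr19:34640739-34640888) and Gbp3 (chr3:142559894-142560043), both on the plus strand of GRCm38.p6, are shown as the genes described first in each family, with matches on either strand in capitals.
Ifit1: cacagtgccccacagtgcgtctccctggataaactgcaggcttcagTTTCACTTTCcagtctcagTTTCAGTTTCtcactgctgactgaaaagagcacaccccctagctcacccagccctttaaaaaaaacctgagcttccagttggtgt
Gbp3: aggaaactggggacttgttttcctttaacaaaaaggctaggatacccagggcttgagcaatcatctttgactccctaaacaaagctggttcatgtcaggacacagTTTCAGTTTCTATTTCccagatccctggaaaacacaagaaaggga
Ifit1 held 2 separate matches and Gbp3 2 overlapping ones, and no binding was measured.

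Most markers of epithelial and goblet cells that were tested were higher in the labelled tumor pool. Of 29 epithelial markers on the array, 24 lay at or above log2 5 on both labelled tumor arrays, 3 on the HDC-KO marrow arrays and 17 to 18 on the wild-type tumor arrays. Their mean level was 3.10 to 3.15 in HDC-KO marrow, 6.34 to 6.46 in wild-type tumor and 8.57 to 8.59 in the labelled tumor pool. Epcam, an adhesion molecule of epithelium, measured 2.63 and 2.60 on the marrow arrays and 11.70 and 11.75 on the tumor arrays and was at least 106-fold higher. Krt8, a keratin, was at least 144-fold higher, and Car1, a carbonic anhydrase of colonocytes, at least 287-fold. Zg16, a mucus lectin of goblet cells, measured 2.92 and 2.99 on the marrow arrays and 13.08 and 13.11 on the tumor arrays and was at least 274-fold higher, Muc2, the gel-forming mucin, at least 89.3-fold, and Lypd8, which holds bacteria off the colon lining, at least 289-fold. Of 12 goblet and antimicrobial genes tested all entered through the tumor arrays. Of the 3 epithelial markers above log2 5 in HDC-KO marrow, Dsp, the junction protein desmoplakin, stood at 9.48 and 9.47 there and rose 2.08-fold, a call lost without the first tumor array, at 0.980. The others, named after their values were seen, were Lgals4, a galectin that rose 38.1-fold, and Ascl2, a factor of intestinal stem cells that was at least 3.07-fold lower. The share of RNA that such cells gave to the values of the other lists was not tested.

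Antibody genes rose furthest of all genes measured in both pools. Igha, the immunoglobulin A heavy chain, measured 5.69 and 5.08 on the marrow arrays and 14.06 and 14.02 on the tumor arrays, a difference of 8.65 ± 0.180 (SE) or 403-fold. Jchain, which joins antibody units for secretion, measured 5.02 and 5.15 on the marrow arrays and 13.02 and 13.10 on the tumor arrays and rose 252-fold. Ighm, the immunoglobulin M heavy chain, rose 18.9-fold, and Ms4a1, which encodes CD20 of B cells, 17.2-fold. Igha was already at 11.04 in wild-type marrow, so the pairs differed in marrow by more than in tumor, where the wild-type mean was 13.12. Of 12 B and plasma cell genes tested, 7 had both pools measured and 5 of those rose, and Xbp1, which plasma cells need and myeloid cells also make, measured 12.43 and 12.44 on the marrow arrays and 12.95 and 12.75 on the tumor arrays.

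T and NK cell genes were few. Gzma, a protease of cytotoxic cells, was at least 56.8-fold higher, Klrd1, an NK receptor chain, at least 3.61-fold, and Cd2, a T and NK adhesion molecule, at least 3.36-fold. Ccl5, a chemokine of T and NK cells and macrophages, was at least 45.8-fold higher, with wild-type tumor at 5.74. Cd3d, a chain of the T cell receptor complex, ran the other way, measured 12.49 and 12.46 on the marrow arrays and 10.26 and 10.29 on the tumor arrays and fell 4.6-fold. Its partner Cd3e was under log2 5 on all 4 arrays, a gene looked up after the values of Cd3d were seen. Of 21 markers on the array 9 were tested, and the 2 with both pools measured, Cd3d and Nkg7, both fell. Nkg7, named after its values were seen and also on the primary granule list, fell 2.87-fold. It went from 8.31 and 8.32 in marrow to 6.58 and 7.01 in tumor. The 7 higher members all entered through the tumor arrays. Of 20 fibroblast, muscle and endothelial markers, Acta2, smooth muscle actin, alone reached log2 5. It did so in every pool and, by its brightest probe set, fell 2.9-fold, while the mean of its probe sets differed by a log2 of -0.610, short of the threshold. Col1a1, Pdgfrb, Pecam1 and Cdh5, looked up as defining markers, were under log2 5 in all pools. Among mast cell, basophil and eosinophil genes, Mcpt8, a basophil protease, was at least 7.31-fold lower and Prg2, a toxic protein of eosinophil granules, at least 7.64-fold lower, while Ccr3, the eotaxin receptor, was at least 5.67-fold higher. Siglecf, an eosinophil and macrophage lectin, measured 7.20 and 7.30 on the marrow arrays and 7.65 and 7.97 on the tumor arrays. Of 16 red cell and platelet genes on the array 6 were tested, and 5 were higher, each with marrow under log2 5. Slc4a1, the anion exchanger of red cells, was at least 23-fold higher. The red cell genes Epor, Klf1 and Gata1, looked up after the values of Slc4a1 were seen, were under log2 5 in all pools.

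**Figure D2:**
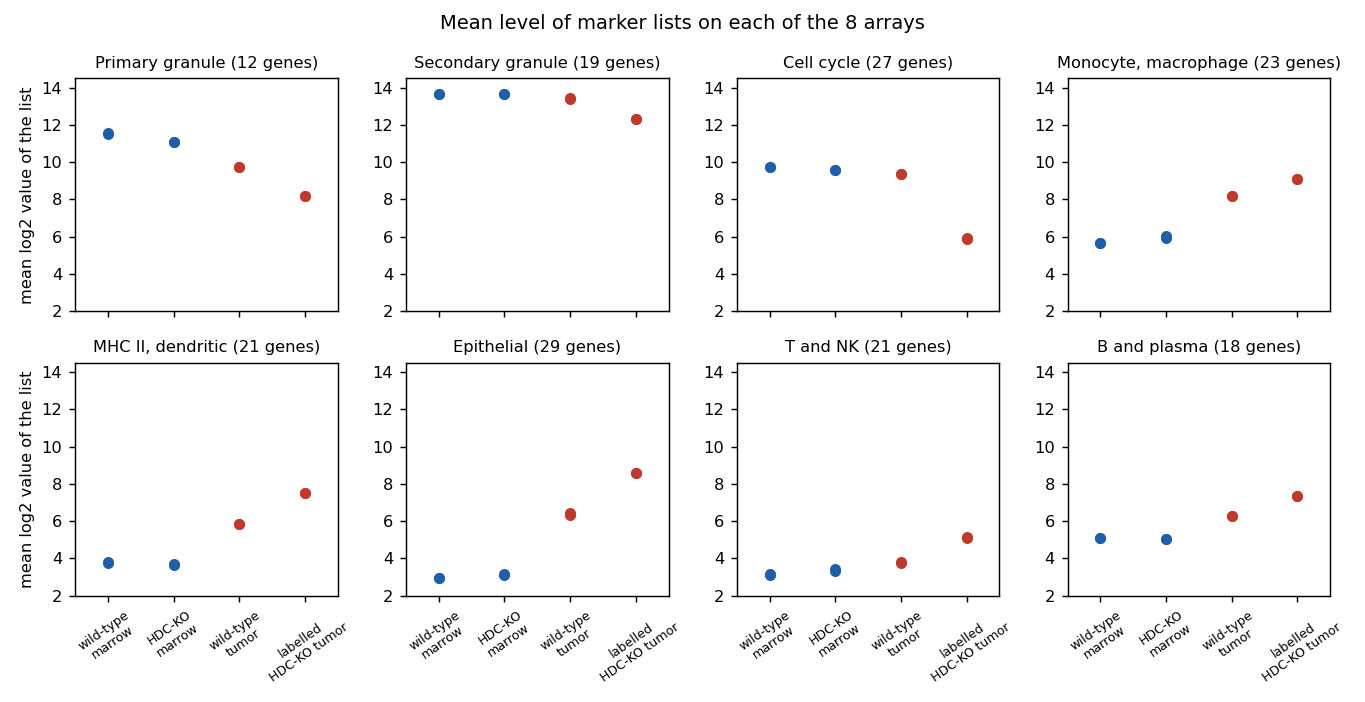
Mean log2 level of 8 marker lists on each of the 8 arrays, with marrow arrays in blue and tumor arrays in red, and the number of genes on the array in each title. The arrays of a pool overlie each other. The labelled HDC-KO tumor arrays are the lowest for primary granule and cell cycle genes and the highest for the macrophage, MHC class II, epithelial and lymphocyte lists.

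Few ribosomal protein and respiratory chain genes passed the test. Of 21 cytosolic ribosomal protein genes tested limma called none, 20 had an unadjusted p under 0.05, and averaging the arrays without a test gave 0 a 2-fold difference. Their median log2 difference was 0.458. Of 29 respiratory chain genes tested Ndufs3 was the 1 called, at 2.13-fold higher, and it missed the threshold after median centring, at 0.973. Their median was 0.225. Glycolysis and hypoxia genes were called higher for 12 and lower for 2 of 28, against 21.3% and 15.4% of all genes tested, with 7 and 2 of the 23 that had both pools measured. Slc2a1, the glucose transporter, measured 10.08 and 10.10 on the marrow arrays and 12.82 and 12.84 on the tumor arrays and rose 6.65-fold. P4ha1, which modifies collagen, rose 11.4-fold, Higd1a, a mitochondrial protein induced in hypoxia, rose 4.79-fold, and Hk3, the hexokinase of granulocytes, fell 5.47-fold. Gapdh, of the pathway's middle, measured 13.57 and 13.57 on the marrow arrays and 13.18 and 13.19 on the tumor arrays.

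Several genes outside these lists fell from high marrow levels to near background. Olfml2b, an extracellular olfactomedin-like protein, measured 10.78 and 10.84 on the marrow arrays and 5.98 and 5.54 on the tumor arrays and fell 33-fold. Ncam1, the neural cell adhesion molecule, measured 10.12 and 10.08 on the marrow arrays and 4.95 and 5.21 on the tumor arrays and fell 32.4-fold. Cldn1, a tight junction protein, fell 24-fold and Sema4f, a semaphorin, 24.4-fold, although both are better known outside blood. Olfml2b and Ncam1 remained high in wild-type tumor, at 10.57 and 9.28. H2-Q10, a nonclassical class I gene, was at least 33.5-fold lower and Slc27a2, a fatty acid transporter, at least 28.9-fold, and both also fell in the wild-type pair, to 4.62 and 2.81.

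The tissue difference of the pair labelled HDC-KO was set against that of the wild-type pair, which shares no array with it. Limma called 1276 genes in the wild-type pair (15.9%), 924 higher (11.5%) and 352 lower (4.37%). Of these, 1047 were called in the same direction in the HDC-KO pair, which was 82.1% of the wild-type calls and 35.5% of the HDC-KO calls, and 35 were called in opposite directions. Across the 8049 genes, which are not independent replicates, the differences correlated at r = 0.770 (Spearman's rho 0.659). The difference between the pairs passed for 2283 genes (28.4%), 1346 higher (16.7%) and 937 lower (11.6%), and of the genes called in the HDC-KO pair it passed for 67.5%. Since Hdc in the labelled HDC-KO tumor pool stood at the wild-type level, these differences compare pools and cannot be assigned to the loss of Hdc.

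**Figure D3:**
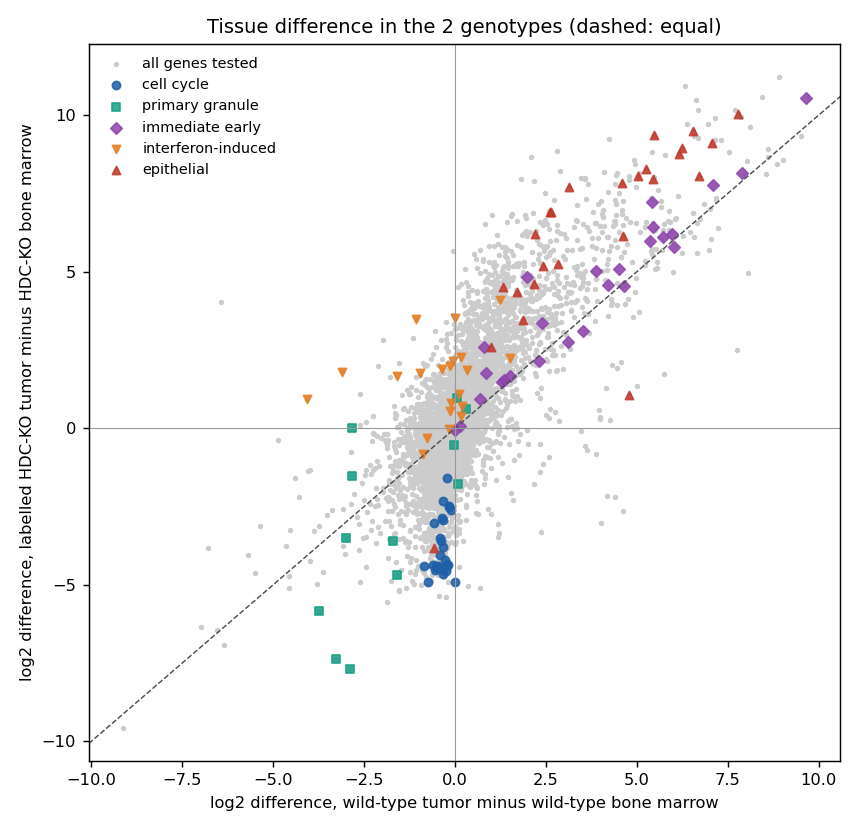
Log2 tissue difference of each of the 8049 genes in the wild-type pair (horizontal axis) and in the pair labelled HDC-KO (vertical axis), tumor minus marrow, with 5 gene lists coloured and a dashed line of equal differences. Immediate early genes lie near the dashed line, and cell cycle genes lie near 0 on the horizontal axis and between -4.92 and -1.57 on the vertical one.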

How the data were processed

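RNA of sorted myeloid cells was hybridised to 8 single-colour Affymetrix mouse arrays, 2 technical arrays for each of 4 pools, and 4 arrays form the main comparison. The deposited values are log2 expression values of 45101 probe sets that the authors made with GCRMA, per the submitters' processing notes, a method that removes background, aligns the arrays and combines the probes of a set. No version of it is given in the sources used here, and the scale was taken from the range of the values. Between 30.3% and 31.8% of an array's probe sets reached log2 5, and Pearson's r between both arrays of a pool, over the genes tested, was 0.995 to 0.998. Arrays have no read depth, so their number limits the precision.

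The platform annotation gave the gene names. Of the probe sets, 34958 had 1 gene symbol, 932 had several and 9211 none, and 204 identifiers were not matched to RefSeq. A gene with several probe sets was represented by the one brightest on average across the 8 arrays. The lmFit and eBayes functions of limma 3.58.1 (R 4.3.3) fitted the 8 arrays in 4 groups. Residual degrees of freedom were 4 and prior ones 2.16. A gene was called where its log2 difference was 1 or more in size and its p, adjusted by Benjamini-Hochberg, was below 0.05. The difference from the wild-type pair is the interaction contrast of the same fit, adjusted over the same 8049 genes. Where 1 pool mean was under log2 5, it was raised to 5 and the fold given as a bound. In a simulation of this comparison with 8049 genes, 95 of 100 genes shifted by log2 1.5 were recovered, as were 100 of 100 shifted by log2 2, and 0 calls were false. A call also needs a 2-fold difference and technical arrays of a pool differ little, so false calls were hardly possible there. The simulation says nothing of the spread between mice.

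Genes were named by a rule. It takes Hdc, the 12 largest and 12 smallest differences with both pools at or above log2 5, the 6 largest and 6 smallest bounds, and the 6 largest and 6 smallest differences from the wild-type pair. From each of 45 gene lists it takes up to 5 called members and the highest one. Genes named outside it are said to be so, and Gstm1, Nkg7, H2-K1, H2-D1 and Bcl2 are left out of the counts of named genes. Members and lists were chosen with earlier results of these data known, so their direction is no independent evidence. Promoter windows came from RefSeq (GRCm38.p6). Alternatives were quantile normalization, median centring, other filters, values raised to log2 5, other choices of probe set, a trended and robust variance model, these 4 arrays alone, the replicate number as a block, each array left out, no test, and a 4-fold threshold. The labels tie same-numbered arrays to no common animal or day, and the correlations of their deviations from the pool means, from -0.014 to 0.058, did not pair them.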

Additional observations from a re-analysis of the deposited data

Results flagged for a closer look

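For 108 of the 173 genes named from those tested, the tumor minus marrow difference in the pair labelled HDC-KO differed from that in the wild-type pair by at least 2-fold in the limma interaction contrast, with adjusted p of at most 0.00914 and n = 2 technical arrays per pool. It was higher for 69 and lower for 39. Each value is the log2 difference in the HDC-KO pair minus that in the wild-type pair, and where a pool lay under log2 5 its size rests on background values.

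Antibody, lymphocyte and other non-myeloid genes were higher in the HDC-KO pair by 6.58 for Igha, 4.41 for Jchain, 2.18 for Ms4a1, 1.42 for Ighm, 6.14 for Ccl5, 3.87 for Klrd1, 2.94 for Cd2 and 2.48 for Gzma. Values for eosinophil, basophil and red cell genes were 4.16 for Ccr3, 4.15 for Slc4a1, 2.95 for Mcpt8 and 1.85 for Siglecf. The epithelial and mucus genes gave 3.40 for Muc2, 2.94 for Car1, 2.44 for Zg16, 2.33 for Lypd8, 2.26 for Krt8 and 2.06 for Epcam. Interferon-induced genes, their GTPases and class I genes gave 5.01 for Oasl2, 4.90 for Ifit3, 4.54 for Ifit1, 4.04 for Nlrc5, 3.50 for Zbp1, 2.85 for Igtp, 2.40 for Gbp3, 2.35 for Tap1, 2.18 for Psmb10, 2.14 for Irf7, 1.79 for Gbp2 and 1.03 for Gbp7. Class II and macrophage genes gave 2.95 for H2-Eb1, 2.57 for H2-Ab1, 2.51 for Itgax, 2.36 for H2-Aa, 1.86 for Cd74, 1.77 for Adgre4, 1.56 for Ctsl, 1.47 for Ly86, 1.13 for Cd14, 2.59 for Irf5 and 1.04 for Irf8. The chemokine and cytokine genes gave 4.61 for Cxcl2, 2.14 for Cxcl3, 2.05 for Ccl3, 2.38 for Il18, 1.18 for Il1b and 3.25 for Igf1. Those of enzymes, receptors and adhesion were 3.14 for Hdc, 3.69 for Tgm2, 3.00 for Acod1, 1.61 for Hpgd, 1.52 for Ptgs2, 2.37 for Cd274, 3.27 for Il10ra, 2.95 for Vcam1, 2.01 for Icam1, 1.93 for Tnfrsf1b and 1.06 for Il1r2. The remaining higher ones were 2.15 for Cyp51, 1.75 for Insig1, 1.71 for Blvrb, 1.44 for Hmox1, 1.62 for Pmaip1, 1.42 for Higd1a, 1.31 for P4ha1, 1.39 for Thbs1, 1.81 for Dusp1, 1.79 for Jun and 1.24 for Cebpb.

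The granule genes named by the rule were lower in the HDC-KO pair, with -4.80 for Mpo, -4.09 for Ctsg, -4.01 for Fcnb, -3.67 for Itgb2l, -3.10 for Ms4a3, -2.09 for Elane, -1.91 for Prtn3, -1.85 for Padi4 and -1.72 for Pglyrp1. Of the same primary granule list, Gstm1 at 2.815 and Nkg7 at 1.315 were called higher. Both were named after their values were seen. Cell cycle and replication genes gave -4.33 for Nuf2, -4.30 for Cenpf, -4.19 for Spc25, -4.15 for Kif11, -3.97 for Bub1, -3.93 for Aurkb, -2.34 for Mki67, -3.72 for Uhrf1, -3.00 for Prim1, -2.89 for Cdc6 and -2.73 for Mcm3. The transcription factors were -3.63 for Gfi1, -3.40 for Erg and -3.15 for Myb. Other genes lower in this pair were -6.60 for Cd3d, -5.40 for Olfml2b, -5.13 for Prg2, -4.09 for Ncam1, -3.76 for Sema4f, -3.73 for Dsp, -3.36 for Cldn1, -3.66 for Lbp, -2.78 for Nt5e, -2.75 for Inhba, -1.98 for Hk3, -1.69 for Lta4h, -1.61 for Acta2, -1.33 for Steap4 and -1.16 for Ltb4r1. Hnmt, which inactivates histamine, gave -1.001.

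Some of these calls rested on 1 array. Cd14 fell to 0.880 without the second HDC-KO marrow array, Il1r2 to 0.996 without the first wild-type tumor array and Gbp7 to 0.998 without the first labelled tumor array. Irf8 was 0.957 without the first HDC-KO marrow array, 0.869 without the second wild-type marrow array and 0.994 without the first wild-type tumor array. Hnmt was -0.990 without the second HDC-KO marrow array, -0.982 without the first labelled tumor array, -0.960 without the second wild-type marrow array and -0.862 without the first wild-type tumor array.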

How the results depend on the processing

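At a 4-fold threshold, 1531 genes were called in place of 2949, 1056 higher and 475 lower, and the difference from the wild-type pair was called for 914 genes, 577 higher and 337 lower. With the filter at log2 7, where 6195 genes were tested, the difference was called higher for 847. No other alternative moved a total or directional count by over 1.5 times. Leaving out each array in turn gave 2949 to 2976 calls, 1694 to 1729 higher and 1236 to 1260 lower, and 2264 to 2310 for the difference, and a pool left with 1 array was assumed to vary like the others. The replicate number as a block gave 2949 and 2281, and since the numbers do not pair the arrays this says nothing of paired mice. Median centring shifted each log2 difference by -0.119, which left 52.5% of calls higher in place of 58.1%, and quantile normalization left 55.3%. Of 173 genes named from those tested, 166 kept their side of the threshold under every alternative but the 4-fold one, and none reversed in the tumor minus marrow difference. The call was gained by Oasl2 (1.06) and Pcna (-1.02) without the second labelled tumor array, by Pcna (-1.07) after centring and by Nfkbia (1.26) as a mean of probe sets. It was lost by Gbp7 (0.991) and Dsp (0.980) without the first labelled tumor array, by Gbp7 (0.903), Dsp (0.937) and Ndufs3 (0.973) after centring, and by Dsp (0.766) and Acta2 (-0.610) as means of probe sets. The difference from the wild-type pair reversed for H2-Ea, -0.18 as reported, at 1.68 with values raised to log2 5 and 1.83 without probe sets ending in _x_at or _s_at, and for Ptgs2, at -0.069 with values raised. With values raised, Cxcl3 (0.067), Ccl3 (0.764) and Elane (-0.960) lost that call, where means under log2 5 count as 5. As means of probe sets Bub1, P4ha1, Ighm, Ctsl, Steap4, Acta2 and Ptgs2 (0.481) lost it. Csf1r, Ccr2, Socs3 and Ncf1 gained it in that way, and the cause was not tested. Median centring took that call from Il1r2 (0.953), Irf8 (0.939) and Gbp7 (0.927) and gave it to Mmp8 (-1.01) and Ncf1 (-1.07). Quantile normalization took that call from Hnmt (-0.977) and gave it to Ncf1 (-1.02). It was gained without 1 array by Aif1 (1.08 and 1.03), Egr1 (1.11), Nr4a1 (1.70), Tlr1 (1.11) and Ncf1 (-1.04). Values under log2 5 limit every bound, and 2 technical arrays per pool say nothing of mice.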

Other observations

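Sensing and cytokine receptor genes were divided in the labelled tumor pool. Tlr1, a receptor for bacterial lipopeptides, was at least 73-fold higher, from 4.67 and 4.67 in marrow to 11.18 and 11.20 in tumor. Ly86, which encodes the partner MD-1 of a Toll-like receptor homologue, rose 14.3-fold, while Lbp, the lipopolysaccharide-binding protein, fell 15.1-fold, from 10.16 and 10.09 in marrow to 6.53 and 5.87 in tumor. Tlr13, a sensor of bacterial ribosomal RNA, measured 11.17 and 11.27 on the marrow arrays and 11.73 and 11.64 on the tumor arrays and did not pass. Of 16 such sensing genes tested, 15 had both pools measured, with 5 higher and 2 lower. Of all genes with both pools measured 11.9% were higher and 14% lower. Of 25 cytokine receptor, STAT and SOCS genes tested, 21 had both pools measured, and 7 of those rose and none fell. Socs3, which restrains interleukin 6 signalling, rose 21.5-fold, Tnfrsf1b, a receptor for tumor necrosis factor, rose 10.1-fold, and Il10ra, the interleukin 10 receptor chain, was at least 42.1-fold higher. Csf2rb, the shared chain of the receptors for interleukin 3 and granulocyte-macrophage colony-stimulating factor, measured 12.47 and 12.41 on the marrow arrays and 13.24 and 13.22 on the tumor arrays and did not pass.

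Of 10 BCL2 family genes tested, 4 were higher and none lower, against 21.3% and 15.4% of all genes tested. In 8 of the 10 both pools were measured, and of these only Pmaip1 and Bcl2l11 passed. Pmaip1, which encodes the death factor NOXA, rose 13.5-fold and Bcl2l11, which encodes BIM, rose 4.89-fold. Bcl2, a survival factor named after its value was seen, was at least 4.49-fold higher with marrow under log2 5. Mcl1, the survival factor of neutrophils, measured 13.36 and 13.39 on the marrow arrays and 14.08 and 13.99 on the tumor arrays. By this brightest probe set it did not pass, while 1 of its 5 other detected sets was higher by a log2 of 1.30. Of 14 iron and heme genes tested, 13 had both pools measured and 4 of those rose, against 11.9% of all such genes. Hmox1, which breaks down heme, rose 9.68-fold, Blvrb, which acts after it, 8.89-fold, and Steap4, a metalloreductase, 11.8-fold. Cholesterol synthesis genes gave 2 rises and 1 fall among the 10 measured in both pools. Of all genes so measured 11.9% rose and 14% fell, so these counts lie near the shares of all genes. Insig1, a brake on this pathway, rose 3.85-fold, Cyp51, a demethylase, rose 3.12-fold and Msmo1, the next oxidase, fell 2.44-fold. Of 6 NADPH oxidase subunits tested Ncf1, the organizer p47phox, was the 1 called, at 2.17-fold lower. All 6 had both pools measured, and of all such genes 25.9% were called. Among 17 leukocyte adhesion genes tested, 12 had both pools measured, with 4 higher and 1 lower, against 11.9% and 14% of all such genes. Vcam1, an adhesion ligand of macrophages and endothelium, measured 9.62 and 9.66 on the marrow arrays and 12.75 and 12.83 on the tumor arrays and rose 8.89-fold, and wild-type tumor stood at 10.58. Itgb2, the shared beta chain of CD11b, measured 13.66 and 13.67 on the marrow arrays and 13.17 and 13.19 on the tumor arrays.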
